A study of Mus musculus with 6 samples.

Results

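Amino acid transporters carry amino acids across the cell membrane, and 10 of them were followed here in MC38 tumour cells taken from mouse liver: Slc7a5, Slc3a2, Slc7a11, Slc1a5, Slc38a1, Slc38a2, Slc7a1, Slc1a4, Slc7a3 and Slc6a9. The genes were chosen by name, and every probe annotated to one of them was taken. The array held 25 such probes for 9 of the 10 genes, out of 45281 probes. No probe used here was annotated to Slc7a5, so its level is not reported. A probe counted as above background where its detection p, the authors' measure of how often a blank control is as bright, was under 0.05. Probes above background on at least 3 of the 6 arrays were tested, which left 8 of the 25 probes and 6 of the 10 genes (Slc3a2, Slc7a11, Slc38a1, Slc38a2, Slc1a4 and Slc6a9), beside 9483 genes tested in all.

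The study compared 3 samples from DT-treated mice with 3 from PBS-treated mice. All mice were CD11bDTR transgenic, so the PBS controls carried the transgene too: the diphtheria toxin receptor under the promoter of CD11b, which myeloid cells such as macrophages and neutrophils use. Diphtheria toxin (DT), or PBS as vehicle, was injected into the peritoneum on days 7 and 9 after MC38 cells, a mouse colon carcinoma line, had been placed in the spleen to seed liver metastases. The livers were collected on day 10 and the tumour cells sorted out of them. The labels do not state the age and sex of the mice, the sort gate, or whether a sample came from 1 mouse or several. The p-values therefore reflect variation among 6 samples that could be partly or wholly technical. Cells outside the reach of the CD11b promoter remained in both groups.

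Every sample was read on its own bead array (Illumina), on which 38.6% to 40.6% of probes in DT and 36.7% to 40.0% in PBS lay above background, and the number of arrays limits the precision. Of 9 epithelial and colon markers, Epcam, Krt18, Krt19, Krt20, Vil1 and Cldn3 never exceeded background, and Krt8, Cdh1 and Cldn7 were tested without passing. Genes of matrix-producing cells differed widely in signal. Of those tested, the proteoglycan Dcn was brightest, at a normalized log2 signal of 13.92 in DT and 13.66 in PBS. Col1a2 was dimmest, at 5.09 in DT and 5.24 in PBS, and Des, Lrat and Rgs5, of the same list, never exceeded background. Of 10 such genes tested 8 were positive and 20% negative, beside 48.7% of all genes, with a median log2 fold change of 0.38. Their summed signals were 31922 to 48926 in DT and 23552 to 36412 in PBS, and Dpt rose (difference 1.74, adjusted p = 0.00671 in limma). Summed signals here and below are before normalization, so they also follow array brightness. The mean signal of an array ran from 311 in PBS sample 2 to 503 in DT sample 2. Of 16 tested genes that mark macrophages and monocytes, 15 had a negative log2 fold change, with a median of −0.77, 0 past an adjusted p of 0.05 in limma and 11 lower at an unadjusted p under 0.05 (68.8%, beside 11.9% of all genes), and with summed signals of 3560 to 4820 in DT and 4886 to 9651 in PBS. Itgam (which encodes CD11b), Clec4f, Timd4 and Ccr2, of the same list, were below background throughout. Of 8 neutrophil markers tested 5 were positive and 3, Csf3r, Mmp9 and Elane, negative (37.5%, beside 48.7% of all genes), with summed signals of 3651 to 5485 in DT and 1753 to 3681 in PBS. S100a8 rose (difference 2.18, adjusted p = 0.0417 in limma), and Lcn2 and Retnlg also passed, so 3 of 8 did where 0.327% of all genes passed higher. Lcn2, Retnlg and Ltf were above background on 3 of 3 DT arrays and 0 of 3 PBS arrays. These 3 met the filter through DT alone, so their positive sign is no separate support. In samples like these, fewer cells of a type and less RNA per cell cannot be told apart.

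The transporters differ in what they carry and how. Slc3a2 encodes the heavy chain 4F2hc (CD98), which brings light chains such as LAT1 (Slc7a5, large neutral amino acids) and xCT (Slc7a11, cystine taken up in exchange for glutamate) to the membrane. Slc1a5 (ASCT2), Slc38a1 (SNAT1) and Slc38a2 (SNAT2) move glutamine and other neutral amino acids with sodium, Slc1a4 (ASCT1) moves alanine, serine and cysteine, Slc7a1 (CAT1) and Slc7a3 (CAT3) move arginine and lysine, and Slc6a9 (GlyT1) moves glycine. Several of them, Slc38a2 and Slc7a11 among them, are known to be induced when amino acids are scarce, through the transcription factor ATF4.

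No member passed an adjusted p of 0.05 in limma over all genes: 0 of 6 were higher and 0 of 6 lower in DT. Over all 9483 genes 1.09% passed, 0.327% higher and 0.759% lower. At an unadjusted p under 0.05 there was 1 member of 6, Slc38a2, lower in DT, against 23.9% of all genes. Its DT and PBS values did not overlap, which held for 1 of 6 members and for 28.9% of all genes. The median log2 fold change, DT minus PBS, was −0.084 over the 6 members and 0.011 over all genes, and 4 of the 6 were negative. The plot of values by array shows this spread, with Slc38a2 probe ILMN_1244123 the single tested probe whose highest DT value lay below its lowest PBS value.

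**Figure D1:**
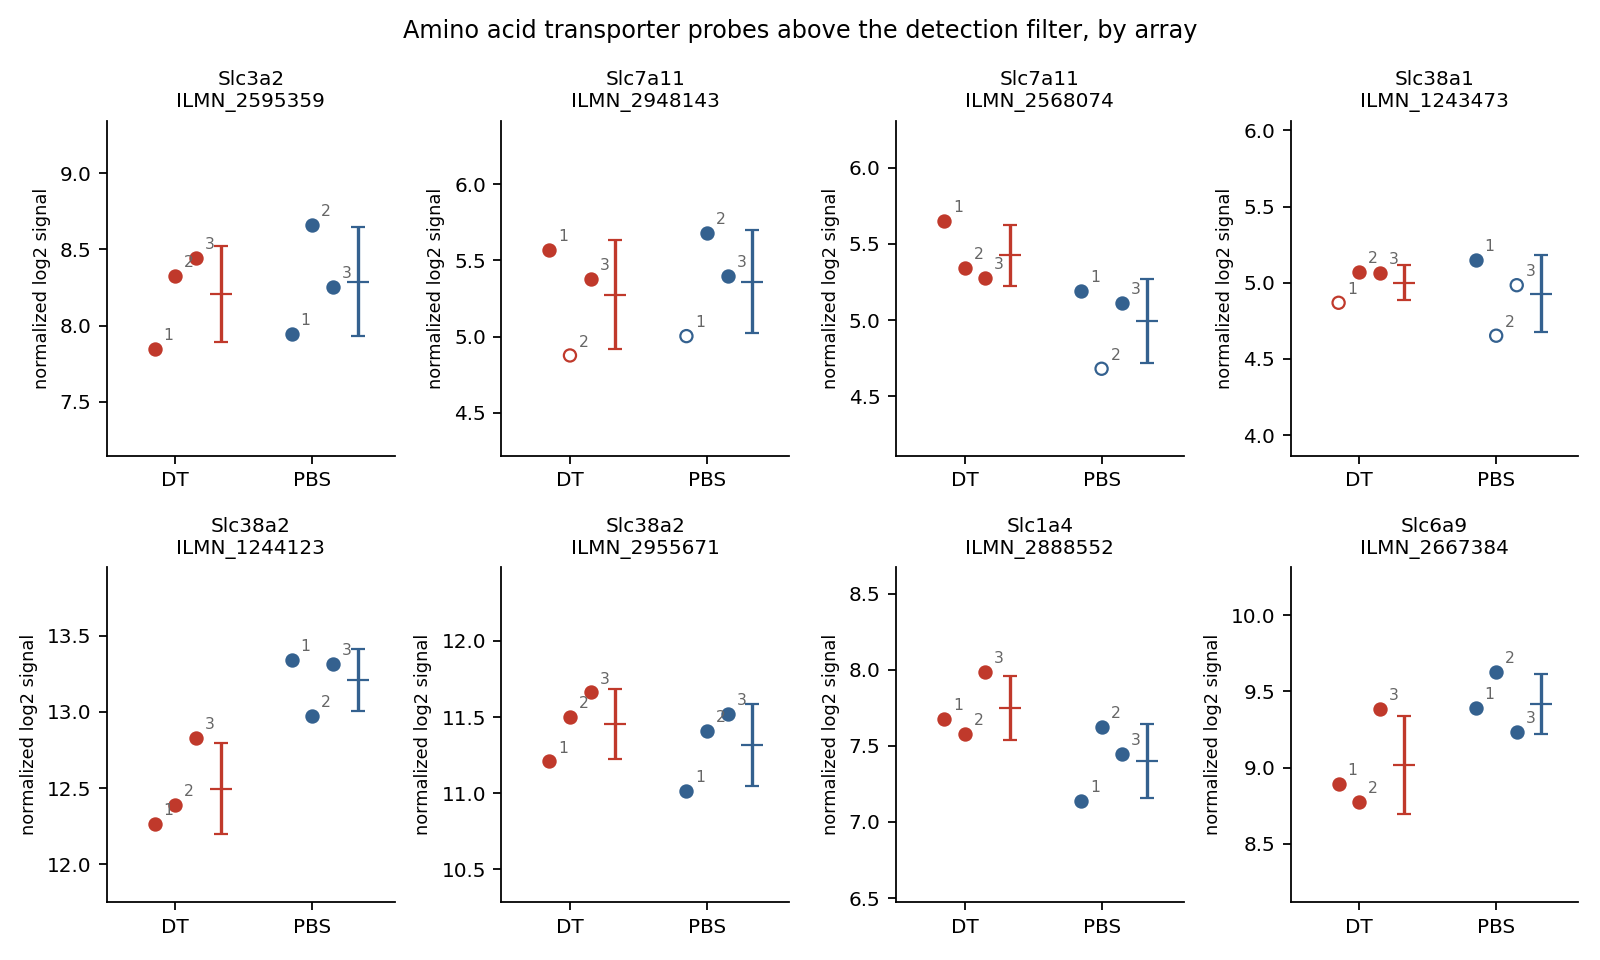
Normalized log2 signal (vertical axis, every panel spanning the same range) of the 8 transporter probes that passed the detection filter, in DT (red, left) and PBS (blue, right). Points are arrays, numbered by replicate, open where the probe was not above background on that array, and bars give the mean and SD. Slc38a2 probe ILMN_1244123 averaged 12.49 in DT and 13.21 in PBS, while Slc38a2 probe ILMN_2955671 averaged 11.46 in DT and 11.31 in PBS.

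Slc38a2 (SNAT2), the sodium-coupled importer of glutamine, alanine and other small neutral amino acids, gave the brightest signals of all the members. On probe ILMN_1244123, the brighter of its probes and the one that stood for the gene, mean bead signals before normalization were 4065, 7286 and 7774 in DT samples 1 to 3 and 11805, 5175 and 10890.4 in PBS samples 1 to 3. After normalization the log2 values were 12.26, 12.39 and 12.83 in the DT samples and 13.34, 12.97 and 13.31 in the PBS samples. All DT values then lay below all PBS values, whereas before normalization PBS sample 2, the array with the lowest mean signal of the 6, lay inside the DT range. The difference was −0.72 on the log2 scale (SE 0.19; 95% interval −1.14 to −0.29), or a 0.609-fold level in DT, with an adjusted p of 0.0737 in limma, which missed the threshold. It passed with a larger offset in the background step (adjusted p = 0.0240 in limma), without background correction (0.0341) and without DT sample 3 (0.0371). With scaling to a common median, where all genes had a median of 0.17, it was −0.49 with an unadjusted p of 0.190 and an adjusted p of 0.922 in limma. Leaving out any 1 of the arrays other than DT sample 3 gave adjusted p-values up to 0.265 in limma, without DT sample 2. PBS sample 3, whose mean over the macrophage markers was 6.86 beside 6.74, 6.70 and 6.90 in the DT samples and 7.77 and 7.90 in the other PBS samples, had 13.31 for this probe, which is 1 array, and the part of macrophage content in the difference was not tested.

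A second Slc38a2 probe did not follow the first. Probe ILMN_2955671 gave signals of 1937, 3963 and 3532 in the DT samples and 2649.7, 1637 and 3290.1 in the PBS samples, and normalized log2 values of 11.21, 11.50 and 11.66 in DT and 11.01, 11.41 and 11.52 in PBS. The groups overlapped, and the difference was 0.14 (SE 0.19; adjusted p = 0.699 in limma over every probe). Both probes are annotated to the same transcript record, and both were far above background on every array.

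Within each array, the signal of the first probe over that of the second was 2.10, 1.84 and 2.20 in the DT samples and 4.46, 3.16 and 3.31 in the PBS samples. No DT ratio reached the lowest PBS ratio. The log2 difference between the probes, DT minus PBS, was −0.86, and an exact two-sided permutation test gave p = 0.1, the smallest that 3 arrays against 3 allow. The difference lay between −0.86 and −0.84 in 5 ways of correcting and normalizing the signals, the authors' deposited values included, and the groups were apart in all of them. On the signals before normalization it was −0.82. Scaling a whole array cancels in a difference within that array, so this agreement is not a separate check. A ratio within an array shows that the probes changed unequally, not which of them kept its level. Of 3691 genes with several tested probes, 8.13% had probes at least as far apart in their log2 fold changes as Slc38a2, where the median gap was 0.31, and 42.2% had probes of opposite sign. The pattern was noticed in these data and then measured, so the test describes it and gives no independent support. With both probes averaged, the Slc38a2 difference was −0.29 (adjusted p = 0.322 in limma). The third probe, ILMN_2721692, was above background on 0 of 3 DT arrays and 2 of 3 PBS arrays, at 4.66 in DT and 5.09 in PBS. Its groups overlapped and it was not tested, so no fold is given. Where the probes lie along the transcript was not analysed here.

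**Figure D2:**
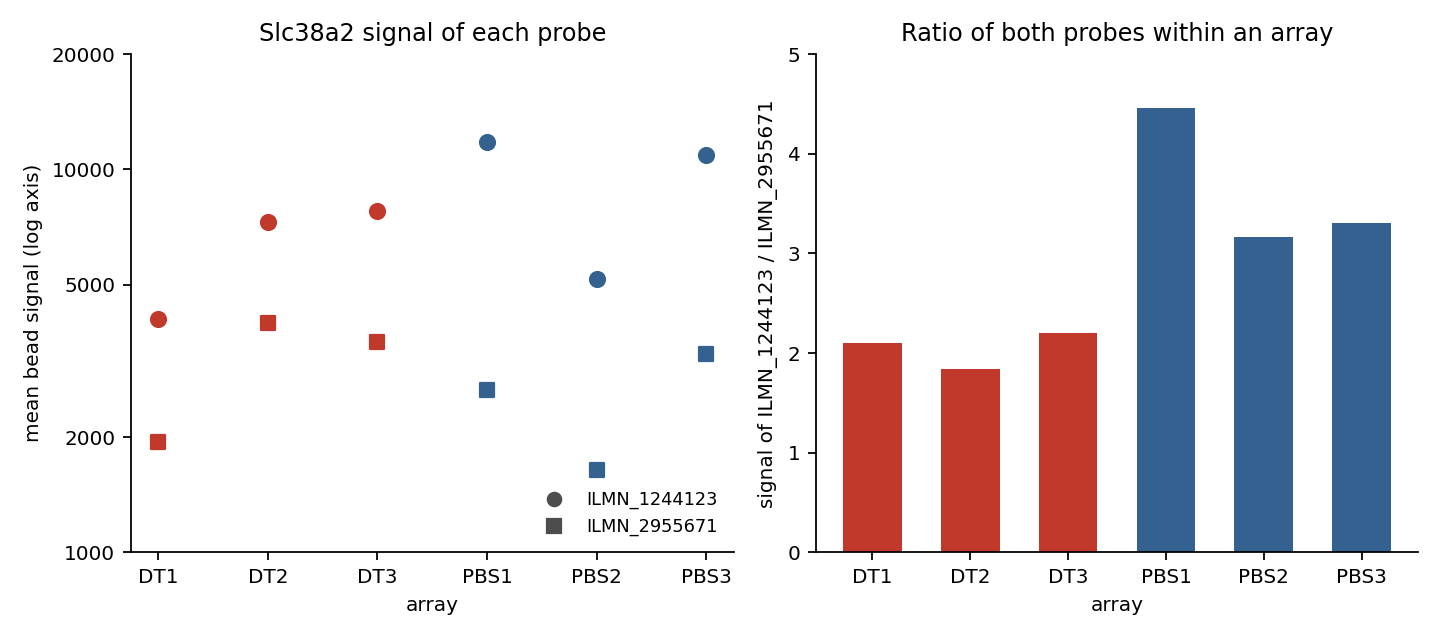
Left, mean bead signal before normalization (log axis) of Slc38a2 probes ILMN_1244123 (circles) and ILMN_2955671 (squares) on each array, DT in red and PBS in blue. Right, the ratio of both signals within each array, from 1.84 to 2.20 in DT and from 3.16 to 4.46 in PBS.

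Over the 6 arrays, the genes outside the members whose centred normalized values lay nearest to those of Slc38a2 probe ILMN_1244123 were Zfp52, with a root mean square difference of 0.048 on the log2 scale, and Shf, with 0.055. Their own log2 fold changes were −0.67 and −0.69. The search covered all genes tested, and with 6 arrays close matches are easily found.

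The other sodium-coupled glutamine carriers were dim. Slc38a1 (SNAT1) had 1 of 4 probes past the filter, ILMN_1243473, above background on 2 of 3 DT arrays and 1 of 3 PBS arrays. Its normalized log2 values were 4.87, 5.07 and 5.06 in the DT samples and 5.15, 4.65 and 4.98 in the PBS samples. The groups overlapped, with a difference of 0.072 (SE 0.17; 95% interval −0.31 to 0.45; adjusted p = 0.830 in limma) that turned to −0.070 without PBS sample 2. Slc1a5 (ASCT2), often the main glutamine importer of cultured tumour cells, had 5 probes, of which 4 stayed below background throughout. The fifth, ILMN_1252970, was above background on 2 of 3 DT arrays and 0 of 3 PBS arrays, with signals of 145, 142 and 156 in DT and 146, 139 and 162 in PBS. These signals overlapped and sat close to the array medians of 135 to 154, so no fold is given.

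Slc3a2, the shared heavy chain, was measured by 1 probe that was above background on every array. Its signals were 285, 543 and 483 in the DT samples and 441, 334 and 447 in the PBS samples, and its normalized log2 values 7.85, 8.33 and 8.44 in DT and 7.95, 8.66 and 8.25 in PBS. The groups overlapped almost fully, and DT sample 1 and PBS sample 1 were the lowest of their groups. The difference was −0.082 (SE 0.22; 95% interval −0.57 to 0.41; adjusted p = 0.851 in limma), with a sign that turned in 3 of 15 alternatives, among them scaling to a common median (0.094, beside 0.17 as the median of all genes).

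Slc7a11 (xCT) pairs with this heavy chain to import cystine for glutathione synthesis. It had 5 probes, 2 of which passed the filter and 2 of which were not above background on any array, and all of its signals lay between 114 and 164 in DT and between 122 and 172 in PBS. Probe ILMN_2948143, which stood for the gene, was above background on 2 of 3 arrays in each group, at 5.57, 4.88 and 5.38 in the DT samples and 5.003, 5.68 and 5.40 in the PBS samples. Its difference of −0.086 (SE 0.23; 95% interval −0.59 to 0.42; adjusted p = 0.848 in limma) was smaller than the SD within either group, at 0.36 in DT and 0.34 in PBS. The other tested probe, ILMN_2568074, gave 5.65, 5.34 and 5.28 in DT and 5.19, 4.68 and 5.11 in PBS, and was above background on all DT arrays and 2 of 3 PBS arrays. Here the groups did not overlap, and the difference of 0.43 (SE 0.19) had an unadjusted p of 0.0480 and an adjusted p of 0.212 in limma over every probe. It was 0.22 with a larger offset and 0.12 without background correction, with unadjusted p-values of 0.126 and 0.180 in limma. A further probe, ILMN_2740738, was above background on 0 of 3 DT arrays and 2 of 3 PBS arrays, at 4.63 in DT and 5.16 in PBS. Its groups did not overlap either, here with PBS the higher. It did not pass the filter and was not tested, so no fold is given. The 2 tested probes thus disagreed in sign at signals near background. Of the 8 transporter probes tested, 2 had groups that did not overlap and 2 an unadjusted p under 0.05 in limma, where 28.2% and 23.1% of all tested probes did, and 0 passed an adjusted p of 0.05, where 1.35% did.

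Promoters of 6 of the 10 members were found in the RefSeq table of GRCm38.p6 (250 bases before to 50 after a start site). They were searched on both strands for TGATGNAA, the core of the amino acid response element that ATF4 binds together with C/EBP proteins. The sequence was present in 2 of the 6 genes, Slc7a11 and Slc1a4, and in 4.51% of all 27025 genes with a window, which by window is 2 of 9 and 3.97% of 32851. Slc7a11 held it 2 times, and 0.07% of all windows held 2 or more matches. No match was found in the windows of Slc3a2, Slc38a2, Slc7a1 and Slc6a9, which says only that these letters are not there. Both stretches are shown because the genes carrying the sequence differed in their values, Slc7a11 near background and Slc1a4 above it, with matches in capitals:
Slc7a11, GRCm38.p6, chr3:50443628-50443704, minus strand: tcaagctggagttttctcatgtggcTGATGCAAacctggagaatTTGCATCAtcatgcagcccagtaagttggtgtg
Slc1a4, GRCm38.p6, chr11:20332699-20332728, minus strand: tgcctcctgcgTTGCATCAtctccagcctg

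Slc1a4 (ASCT1), the exchanger of alanine, serine and cysteine whose start site lies within the match shown, was the member with the highest positive difference among the 6 tested. Its 1 probe gave signals of 267, 373 and 384 in the DT samples and 303, 224 and 307 in the PBS samples, all above background. Normalized log2 values were 7.68, 7.58 and 7.98 in DT and 7.14, 7.62 and 7.44 in PBS. PBS sample 2 lay above DT sample 2, so the groups overlapped. The difference of 0.35 (SE 0.18; 95% interval −0.054 to 0.75), a 1.27-fold level in DT, did not pass (adjusted p = 0.269 in limma). It was positive in all 15 alternatives, some of which could not change it, from 0.21 to 0.52. The highest was with scaling to a common median, where all genes had a median of 0.17.

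Slc6a9 (GlyT1), the sodium- and chloride-coupled glycine transporter, had 1 bright probe and 1 that was not above background on any array. The bright probe gave signals of 468, 706 and 815 in the DT samples and 976, 528 and 765 in the PBS samples. Normalized log2 values were 8.89, 8.78 and 9.38 in DT and 9.39, 9.62 and 9.24 in PBS. DT samples 1 and 2 lay below every PBS sample, while DT sample 3 lay inside the PBS range. The difference of −0.40 (SE 0.19; 95% interval −0.83 to 0.032), a 0.759-fold level in DT, did not pass (adjusted p = 0.239 in limma). It was negative in all 15 alternatives, some of which could not change it, from −0.58 to −0.19. The value of −0.19 was with scaling to a common median, where all genes had a median of 0.17.

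The carriers of arginine and lysine were not seen. Slc7a1 (CAT1) and Slc7a3 (CAT3) had 2 probes each, and none of these 4 was above background on any array. Slc7a1 signals ranged from 128 to 144 in DT and from 124 to 145 in PBS, and Slc7a3 signals from 126 to 150.0 in DT and from 130 to 163 in PBS. A difference in either gene was not detectable at these signals, which is not evidence that the cells lack the transcript.

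The plot of fold changes sets the 6 members beside other amino acid transporters. Of 45 further transporters of the plasma membrane and lysosome, 42 had a probe and 13 were tested. None of the 13 passed an adjusted p of 0.05 in limma, and 1 was higher and 1 lower at an unadjusted p under 0.05, where 12% and 11.9% of all genes were. With a larger offset, without background correction, with the deposited normalized values or without DT sample 3, 1 passed, lower in DT. The same held with a detection p under 0.01, where 9 were tested. Their median was −0.013 (0.11 with scaling to a common median, where all genes had 0.17). The nearest to the threshold was Slc38a10, a relative of Slc38a2, at 6.99 ± 0.23 in DT and 7.91 ± 0.27 in PBS (SD, n = 3 each; difference −0.92, adjusted p = 0.0509 in limma). Slc7a6, a light chain of Slc3a2 that exchanges cationic for neutral amino acids, was at 6.08 ± 0.079 in DT and 5.63 ± 0.13 in PBS (difference 0.45, adjusted p = 0.117 in limma). Among mitochondrial carriers, 7 of 11 were tested and 0 passed in limma, with a median of 0.27 (0.059 without DT sample 1) and with 3 higher and 3 lower at an unadjusted p under 0.05. With a larger offset or without background correction 1 of them passed, lower in DT. Sfxn1, which carries serine into mitochondria, gave −0.47 (SE 0.14), and Slc25a12, which exchanges aspartate for glutamate, gave 0.52 (SE 0.16); their adjusted p in limma was 0.101 for Sfxn1 and 0.105 for Slc25a12.

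**Figure D3:**
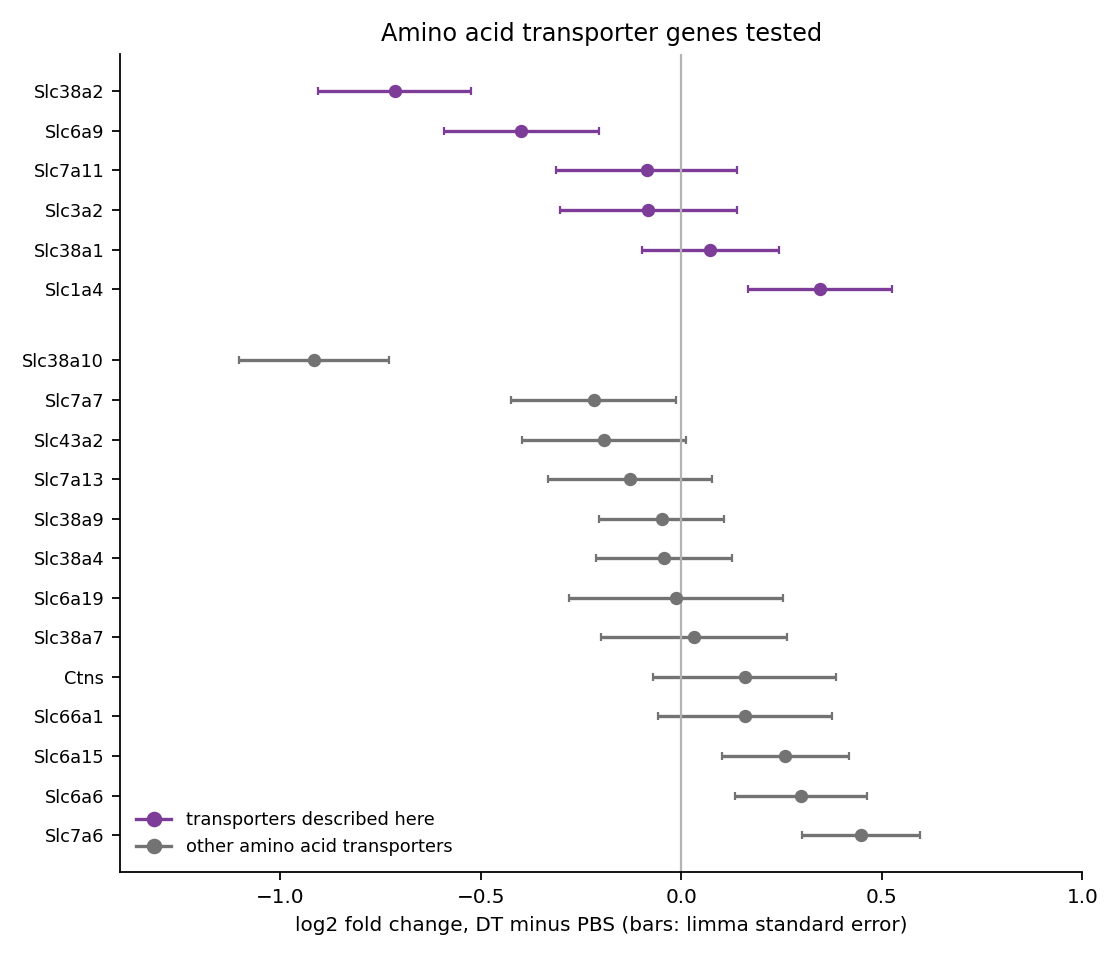
Log2 fold change, DT minus PBS (horizontal axis), with the limma standard error as bars, for the 6 transporters described here (purple) and 13 other amino acid transporters tested (grey). Slc38a2 at −0.72 and Slc38a10 at −0.92 lie farthest to the left, and Slc7a6 at 0.45 farthest to the right.

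Genes that use or sense amino acids were examined as the surroundings of the transporters. Cytosolic aminoacyl-tRNA synthetases, which load amino acids onto tRNA, had a negative fold change in 16 of 19 tested (84.2%, beside 48.7% of all genes). Their median of −0.29 became −0.064 when arrays were scaled to a common median, with 8 of 19 positive. All genes were then at a median of 0.17. Cars (cysteine) and Hars (histidine) fell. Cars had 7.27 ± 0.31 in DT and 8.49 ± 0.39 in PBS (SD, n = 3 each), and Hars 6.56 ± 0.15 in DT and 7.35 ± 0.095 in PBS, differences of −1.22 and −0.79 with an adjusted p of 0.0459 each in limma. Of the 19, 7 were lower at an unadjusted p under 0.05, or 36.8%, beside 11.9% of all genes, and 1 was higher. None of the 19 passed when any 1 array other than DT sample 3 was left out, with scaling to a common median, or with no filter on dim probes. With the mean of all tested probes of a gene 1 of 19 passed, the median was −0.18 and 6 were positive. With the replicate number as a block 1 passed.

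ATF4 and its targets, a list that in other work includes several of the transporters, were negative in 19 of 23 tested (82.6%, beside 48.7% of all genes). Their median was −0.34, or −0.17 with 9 of 23 positive under scaling to a common median, where all genes had a median of 0.17. None passed an adjusted p of 0.05 in limma, while 4 passed, all lower, with a larger offset, without background correction or without DT sample 3. At an unadjusted p under 0.05, 8 were lower (34.8%, beside 11.9% of all genes) and 1 higher (4.35%, beside 12% of all genes). Trib3, a pseudokinase induced by ATF4, gave 9.07 ± 0.45 in DT and 10.21 ± 0.37 in PBS (SD, n = 3 each; difference −1.14, adjusted p = 0.0568 in limma). Eif4ebp1, which restrains translation, gave −0.72 (SE 0.17; adjusted p = 0.0613 in limma). PBS sample 2 had the highest mean of this list, at 9.86 beside 9.49 and 9.57 in the other PBS samples and 9.30, 9.15 and 9.48 in the DT samples. The median was −0.24 without PBS sample 2 and −0.21 without DT sample 2.

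Genes of amino acid sensing through mTORC1 and GCN2 had a median of −0.023 over 26 tested (0.16 with scaling to a common median, where all genes had 0.17). In limma 0 were past an adjusted p of 0.05, and 2 without background correction, 1 higher and 1 lower. At an unadjusted p under 0.05, 2 were higher and 1 lower, where 12% and 11.9% of all genes were. Rheb, the small GTPase that activates mTORC1, gave 0.46 (SE 0.15), and Tsc2, part of the complex that turns Rheb off, gave −0.41 (SE 0.15); their adjusted p in limma was 0.115 for Rheb and 0.143 for Tsc2. Glutathione and NRF2 genes had a median of −0.031 over 12 tested (0.13 with that scaling and 0.032 without PBS sample 2). In limma 0 passed, and 1, higher in DT, without background correction. Gpx1, a glutathione peroxidase, gave 0.53 (SE 0.17; adjusted p = 0.117). Hmox1, an enzyme of haem breakdown that macrophages also express, gave −1.18 (SE 0.45; adjusted p = 0.153), beside a median of −0.77 over the macrophage markers, whose part in it was not tested. Genes of glutamine use and of transporter regulation had a median of −0.15 over 8 tested (0.039 with that scaling, −0.036 without PBS sample 2 and −0.27 without PBS sample 1), with 0 past the threshold in limma, 1 higher and 2 lower at an unadjusted p under 0.05. The transcription factor Myc, known to raise glutamine importers, gave 0.48 (SE 0.18; adjusted p = 0.149), from a probe above background on 3 of 3 DT arrays but 1 of 3 PBS arrays, and Nedd4l, a ubiquitin ligase of the family that removes transporters from the membrane, gave −0.39 (SE 0.15; adjusted p = 0.167).

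**Figure D4:**
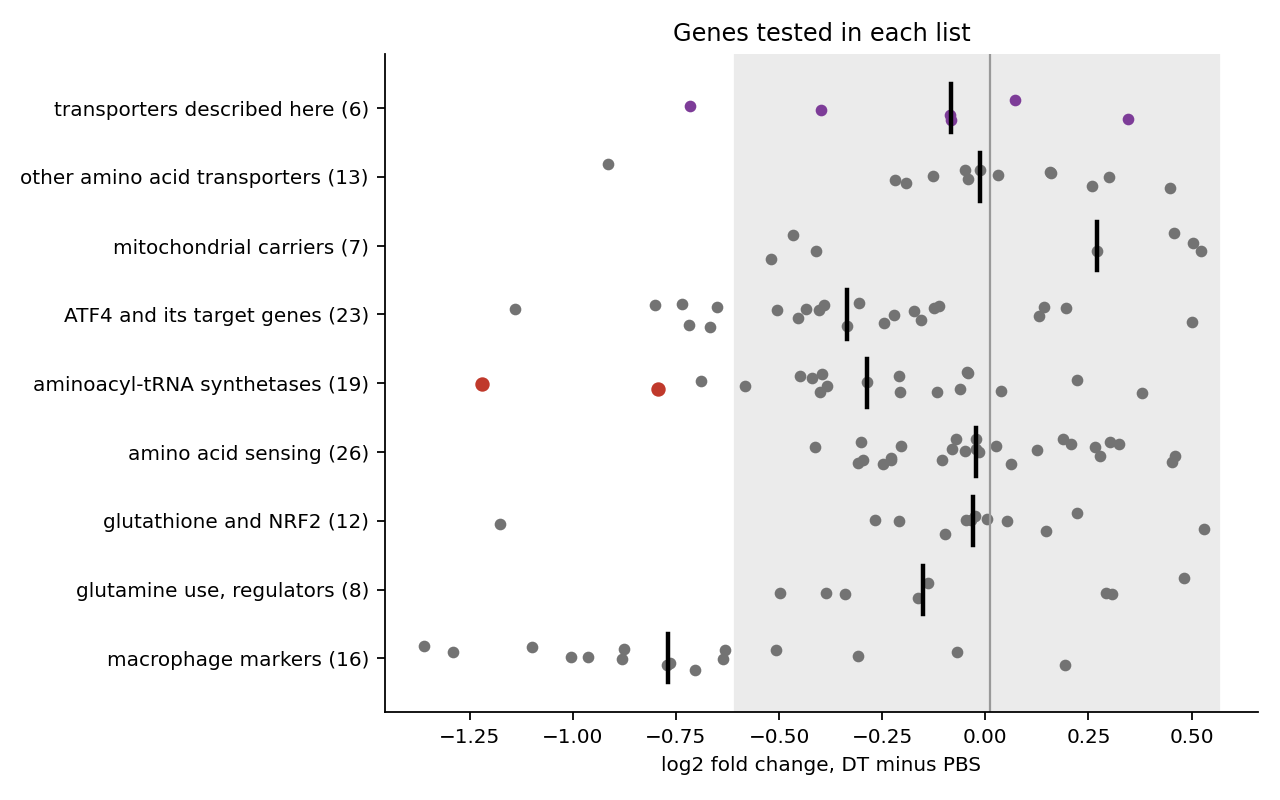
Log2 fold change, DT minus PBS, of each tested gene (points) in the gene lists named on the vertical axis, with the number tested in brackets, the median as a black bar and genes past an adjusted p of 0.05 in red. The shaded band spans the 5th to 95th percentile of all 9483 genes, from −0.61 to 0.57. The 6 transporters described here spread from −0.72 to 0.35 with a median of −0.084, and the aminoacyl-tRNA synthetases hold both red points, Cars and Hars.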

How the data were processed

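Per the labels' protocols, total RNA of sorted MC38 cells was extracted with Trizol, amplified from oligo-dT primers and biotinylated for Illumina arrays. The authors deposited, per the file headers, an average bead intensity for every probe on every array, linear and not normalized between arrays, each with a detection p-value. They also deposited normalized log2 values, whose making is not given in the sources used here and which served as an alternative. Probes took genes from the platform annotation: 34885 had 1 gene, 18 several and 10378 none named here. For 34807 probes the gene identifier was found in RefSeq and the symbol given there was used, whether or not it differed. R 4.3.3 and limma 3.58.1 were used, with its neqc function (normexp background from detection p-values, offset 16, quantile normalization, log2). The probe with the highest mean stood for a gene. The groups were compared two-sided with lmFit and eBayes, p-values being adjusted by Benjamini and Hochberg's method across the genes tested, and in a further fit over 17759 probes. The replicate numbers were not used for pairing. The procedure was tested on simulated data. Of each other pathway list the 2 genes with the smallest p are named, marker genes were picked after their values were seen, and for Slc38a2 the 2 genes nearest in pattern. Members and lists were chosen with earlier results of these data known. The offset shrinks fold changes of dim probes, and the quantile step removes a shift shared by all genes. Alternatives covered background, normalization, filter, choice of probe, a replicate block and leaving out each array. Promoter sequences are from RefSeq (GRCm38.p6). Figures were drawn with matplotlib 3.10.9.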

Additional observations from a re-analysis of the deposited data

How the results depend on the processing

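Over all genes, 103 passed in limma. The count was 654 with a normexp offset of 50, 558 without background correction, 27 with scaling to a common median, 313 with the deposited normalized values, 264 with a detection p under 0.01, 240 of 17759 with every probe tested, and 0 with no filter on dim probes, where limma gave 2942 at an unadjusted p under 0.05. Leaving out arrays gave 0 (without DT sample 2, where 1299 had an unadjusted p under 0.05) to 389 (without DT sample 3), with 3 without PBS sample 2, 4 without DT sample 1 and 63 without PBS sample 1. The cause was not tested. Samples of the same number did not deviate together (correlations −0.10, −0.18 and 0.030 for numbers 1 to 3). The labels do not say whether the numbers pair mice, and these correlations cannot exclude it. With the replicate number as a block, 30 genes passed and 0 members. Of the 6 members, 1 passed (Slc38a2, lower) with an offset of 50 and 1 without background correction, and leaving out arrays gave 0 to 1; over the 8 probes the counts were the same, at 1, 1 and 0 to 1. Slc38a2, Slc6a9 and Slc1a4 kept their direction in all 15 alternatives. Other filters, testing every probe and the replicate block could not change these estimates, and neither could averaging probes for Slc6a9 and Slc1a4. Those alternatives are therefore no separate check of direction. For Slc38a2, 1 of the 15 averaged both tested probes and the others used probe ILMN_1244123. Signs turned for Slc38a2 probe ILMN_2955671 without PBS sample 1 (range without 1 array −0.010 to 0.26), Slc38a1 without PBS sample 2 (−0.070; highest 0.17 without PBS sample 1), Slc3a2 with scaling to a common median (0.094), without PBS sample 2 (0.11) and without DT sample 1 (0.096; lowest −0.25 without PBS sample 1), and Slc7a11 with the mean of its probes (0.17), without PBS sample 2 (0.079) and without DT sample 2 (0.11; lowest −0.25 without PBS sample 1); the cause was not tested. With a detection p under 0.01, Slc7a11 and Slc38a1 were not tested. Signals near background limit Slc7a11, Slc38a1, Slc1a5, Slc7a1 and Slc7a3.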
